A study of Mus musculus with 2 samples.

Results

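Predicted microRNA genes with Gm names are loci that the mouse gene annotation classes as miRNA without a miRNA name, only a placeholder of the letters Gm and a number. The members were all miRNA genes of the count tables whose GENCODE M21 symbol is Gm followed by digits alone, with Gm25301 left out by the rule. The rule uses symbols and no measured values, though it was set with earlier results of these data known. Gm25301 had 1 and 0 own-strand counts, and 294710 and 328406 opposite-strand counts, more than any member. They made up 1020 of the 2202 genes in the tables and carried 1019 distinct symbols, because Gm24022 names a pair of gene identifiers. The other 1182 genes, 1174 of them with Mir names, served as the comparison. Small RNA was sequenced from adrenal glands of female mice of strain B6CASTF1/J, the F1 hybrid of C57BL/6J and CAST/EiJ, at 14 days of age, with no treatment named in the labels. There was 1 group of 2 libraries, replicates 1 and 2, and hence no comparison between conditions. Replicate 1 was labelled as 3 females and replicate 2 as a single numbered female, yet the donor identifier was shared, so it is not certain that the libraries came from separate animals.

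A miRNA gene is transcribed as a longer RNA in which a hairpin forms. The Microprocessor, Drosha with its partner Dgcr8, cuts the hairpin out, and Dicer trims it to a mature RNA that guides Argonaute proteins to messenger RNAs. Pairing of the bases called the seed, near the 5′ end of the mature RNA, selects most targets. Annotation pipelines also predict miRNA genes from sequence similarity and folding alone, and many Gm-named loci stem from such predictions. Other abundant RNAs, such as small nucleolar RNAs (snoRNAs), the 7SL RNA of the signal recognition particle, ribosomal RNA and messenger RNA, also leave short fragments in small RNA libraries.

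Most of these loci had no counts assigned on their own strand in either library, and a few held counts in both. Counts are raw reads on the gene's own strand throughout, unless another strand is named. Of the 1020 members, 952 (93.3%) had 0 counts in both libraries, 29 had counts in only 1 library, and 39 (3.82%) had at least 1 count in each. Over all 2202 genes, 26.7% had at least 1 count in each library, and among the 1182 other genes 549 (46.4%) did. At least 10 counts in each library, the minimum used here for detection, were reached by 8 members (0.784%), against 16.3% of all genes and 29.6% of the other genes. For a member without copies elsewhere, 0 counts allow a level of up to 3 counts, equal to 0.790 CPM (counts scaled to a library total of 1000000) in replicate 1 and 0.596 CPM in replicate 2. This limit does not hold for members with copies, since reads that map to several places are counted for no gene, and 820 of the 952 shared a run of at least 18 bases with another miRNA gene of the tables.

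The sequences of the members that the results turn on fall into sets of different kinds. They are printed 5′ to 3′ on the strand of the gene, from the GENCODE M21 transcripts (mm10). The first set shows members that RefSeq (GRCm38.p6) lists as hairpins of a numbered miRNA and that had counts, with the RefSeq mature sequences in capitals.
Gm23450: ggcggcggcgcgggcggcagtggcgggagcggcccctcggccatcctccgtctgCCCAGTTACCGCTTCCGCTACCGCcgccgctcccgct
Gm38670: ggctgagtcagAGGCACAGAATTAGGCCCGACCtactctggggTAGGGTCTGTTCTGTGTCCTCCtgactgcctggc
Gm23450, at chr7:3415066-3415156 on the plus strand, held the 24 bases of miR-935 in its 3′ part. Gm38670, at chr7:30552828-30552904 on the plus strand, held both arms of miR-9769. Gm38670 was chosen for printing after its values were seen.

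The second set pairs members with the named miRNA gene on the other strand, printed because their reads lay wholly on one strand. In the named gene the capitals mark the RefSeq mature sequences, and in the member they mark the reverse complement of those sequences.
Mirlet7e: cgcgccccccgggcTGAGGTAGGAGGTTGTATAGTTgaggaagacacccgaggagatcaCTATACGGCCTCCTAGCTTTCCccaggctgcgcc
Gm25927: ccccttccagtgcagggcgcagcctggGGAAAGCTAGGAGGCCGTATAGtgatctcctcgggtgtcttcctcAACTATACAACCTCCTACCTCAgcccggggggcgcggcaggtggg
Mir191: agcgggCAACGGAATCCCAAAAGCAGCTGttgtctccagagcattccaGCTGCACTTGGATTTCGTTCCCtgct
Gm24083: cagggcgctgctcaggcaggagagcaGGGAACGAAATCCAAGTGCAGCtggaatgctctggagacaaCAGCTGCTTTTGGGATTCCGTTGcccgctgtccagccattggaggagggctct
Mir409: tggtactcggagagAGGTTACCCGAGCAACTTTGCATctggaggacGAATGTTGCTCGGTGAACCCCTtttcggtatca
Gm24321: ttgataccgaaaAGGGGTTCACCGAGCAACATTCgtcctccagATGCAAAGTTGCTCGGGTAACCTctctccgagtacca
Each member covered the whole partner. Gm25927 (chr17:17830343-17830459, minus strand) overlapped Mirlet7e by 93 bases, Gm24083 (chr9:108568295-108568414, minus strand) overlapped Mir191 by 74 bases, and Gm24321 (chr12:109743158-109743237, minus strand) overlapped Mir409 by 79 bases.

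A further set shows detected members that share their place or sequence with something other than a listed mature miRNA at that locus. Capitals mark the bases annotated as a snoRNA in Gm49346 and Gm47277, and the longest run shared with any RefSeq mature sequence in Gm27881. Gm23935 has no marked part and is shown because 2 other members repeat it letter for letter.
Gm49346: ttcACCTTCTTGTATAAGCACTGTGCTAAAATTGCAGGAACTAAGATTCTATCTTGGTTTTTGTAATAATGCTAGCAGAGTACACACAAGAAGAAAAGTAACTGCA
Gm47277: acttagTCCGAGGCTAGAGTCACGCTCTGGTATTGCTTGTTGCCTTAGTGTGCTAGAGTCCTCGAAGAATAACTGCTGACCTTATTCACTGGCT
Gm27881: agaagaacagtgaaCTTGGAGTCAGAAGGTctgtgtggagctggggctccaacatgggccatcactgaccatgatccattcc
Gm23935: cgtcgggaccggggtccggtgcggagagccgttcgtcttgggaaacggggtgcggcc
In Gm49346 (chr16:23110753-23110858, plus strand), 103 of 106 bases are annotated as Snora81, and in Gm47277 (chr8:13876091-13876184, plus strand), 88 of 94 bases belong to the snoRNA Gm24698. The run of 16 bases in Gm27881 (chr1:13262198-13262279, plus strand) matches bases 7 to 22 of miR-378d, so most of the miR-378d seed is not in it.

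The last set gives the mature sequences that recur most often among members, with the seed (bases 2 to 8) in capitals, and 1 member that carries the first of them, here with the whole mature sequence in capitals. Gm22066 is only an example.
miR-680: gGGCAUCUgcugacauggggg
miR-3471: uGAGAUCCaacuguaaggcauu
miR-3470b: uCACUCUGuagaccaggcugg
Gm22066: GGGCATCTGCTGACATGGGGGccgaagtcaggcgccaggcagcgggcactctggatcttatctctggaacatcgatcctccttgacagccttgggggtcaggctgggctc
Gm22066 lies in an intron of Myoz2, at chr3:123015259-123015368 on the minus strand. The mature sequence stands at its very 5′ end, and the 3 seeds above differ from one another.

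Across the series, replicate 1 held 3797107 counts on miRNA genes and replicate 2 held 5034257. Reads that mapped to several places, 3002371 of 10720796 in replicate 1 and 2795730 of 11190481 in replicate 2, were set aside in the authors' tables and count for no gene. Mir122, a liver miRNA, had 10996 counts in replicate 1 and 1080041 in replicate 2, and Mir206, a skeletal muscle miRNA, had 106 and 7815. With totals taken without Mir122, the members' share of counts given below was 0.0557% ± 0.0367 (SD, n = 2). The part of Mir122 and Mir206 in the differences of single members was not tested.

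The members together contributed 3091 counts to replicate 1 and 1175 to replicate 2. That was 0.0814% of the miRNA counts of replicate 1 (Wilson 95% interval 0.0786 to 0.0843%) and 0.0233% of those of replicate 2 (0.0220 to 0.0247%), or 0.0524% ± 0.0411 (SD, n = 2). The intervals cover counting error only, and they do not overlap, so the libraries differed by more than counting error in this share. Gm26117 alone supplied 82.1% of the member counts in replicate 1 (80.7 to 83.4%) and 64.3% in replicate 2 (61.5 to 66.9%). Without it the members held 553 counts in replicate 1 and 420 in replicate 2, and the mean share fell to 0.0115% ± 0.00440 (SD, n = 2).

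Gm26117 stood out from the other members by its level. It had 2538 counts in replicate 1 and 755 in replicate 2, or 668 and 150 CPM, with a mean of 409 ± 367 CPM (SD, n = 2). Replicate 1 was the higher library. By mean CPM it ranked 118 among all 2202 genes, while the next member, Gm49347, ranked 241. Gm26117 lies at chr15:74563821-74563915 on the plus strand and overlaps the first exon of an annotated Adgrb1 transcript. The exon sequence that it overlaps is annotated as 5′ UTR only. Whether this is the main first exon of Adgrb1 was not examined. Adgrb1 encodes an adhesion G protein-coupled receptor that recognises phosphatidylserine on dying cells. The gene is 91.6% G and C, and its predicted minimum free energy was -0.632 kcal/mol per base. Its longest run shared with any RefSeq mature sequence was 12 bases, of miR-2861, and no other miRNA gene in the tables shared 18 bases with it. Transcripts of 21 genes elsewhere shared a run of at least 18 bases with it, the longest 22 bases long.

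Gm49347 and Gm23450 followed. Gm49347 overlaps the snoRNA Snora74a and had 157 counts in replicate 1 and 122 in replicate 2, with a mean of 32.8 ± 12.1 CPM (SD, n = 2). Gm23450 had 79 and 52 counts, a mean of 15.6 ± 7.41 CPM (SD, n = 2). Both had more counts and a higher CPM in replicate 1, though for Gm49347 no difference was detectable in the scaled comparison given below. Gm23450, the miR-935 hairpin printed first above, overlaps exon 4 of a Cacng8 transcript, in coding sequence. Cacng8 encodes an auxiliary subunit of AMPA-type glutamate receptors. It was 79.1% G and C and had a minimum free energy of -0.609 kcal/mol per base.

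Gm23935 had 57 counts in replicate 1 and 37 in replicate 2. It lies at chr16:11144125-11144181, opposite Zc3h7a, which encodes a zinc finger protein. The 2 other members of identical sequence were Gm24270, in an intron of Peak1 on chromosome 9, with 6 and 15 counts, and Gm24245, intergenic on chromosome 4, with 1 and 0. The copies thus did not rank the libraries alike. Since reads that fit several places were set aside, how reads came to be assigned among identical copies is not given in the sources used here, and the 3 values are uncertain. Leaving miRNA genes out, no GENCODE transcript of a gene elsewhere shared 18 bases with Gm23935 in the same orientation. Large-subunit ribosomal RNA was not searched here, so whether it holds this sequence, and whether the reads come from it, was not tested.

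The other 4 detected members had low counts. Gm49346, which lies almost wholly within Snora81 in an intron of the translation factor gene Eif4a2, had 21 counts in replicate 1 and 25 in replicate 2. It covers 103 of the 178 bases of Snora81. Gm27881, opposite the nuclear receptor coactivator gene Ncoa2, had 24 and 10. Gm47277, over the snoRNA Gm24698 in Champ1, had 10 and 28. Gm27920, overlapping the first exon of a transcript of the deubiquitinase gene Usp15, had 10 and 13. Its overlap includes 5′ UTR and coding sequence. Gm47277 and Gm27881 pointed in opposite directions between the libraries, and the other pair were close. All 8 detected members had 0 opposite-strand counts in both libraries.

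**Figure D1:**
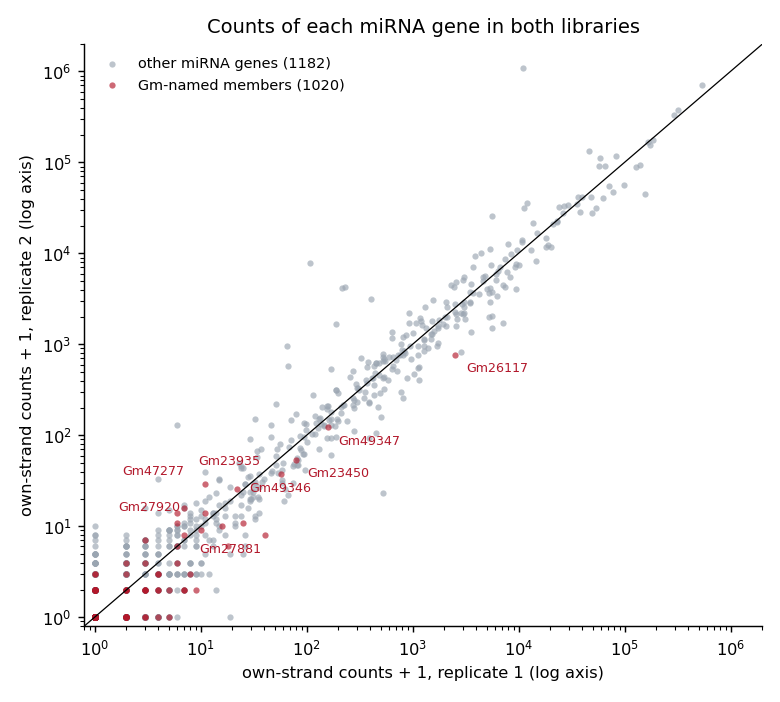
Own-strand counts plus 1 of every miRNA gene in replicate 1 (horizontal, log axis) and replicate 2 (vertical, log axis), 1 point per gene, with the line of equal counts and the 8 detected members named. The members gather at the lower left corner, where 952 of 1020 have 0 counts in both libraries, and Gm26117, at 2538 and 755 counts, lies below the line.

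Between the libraries, 3 of the 8 detected members passed both the adjusted p of 0.05 and the fold minimum. The log2 ratio is replicate 2 over replicate 1 after scaling by TMM (trimmed mean of M-values), with a prior count of 0.5, and a member was called where the ratio was at least 1 in size and the adjusted p below 0.05. Gm26117 was lower in replicate 2, with a log2 ratio of -1.73 (95% interval -1.85 to -1.61, adjusted p 1.84e-216, two-sided exact binomial test, Benjamini-Hochberg over 358 genes), a 3.31-fold difference. Gm27881 was also lower, at -1.20 (-2.47 to -0.12, adjusted p 0.0368 by the same exact test). Gm47277 was higher, at 1.46 (0.42 to 2.71, adjusted p 0.00532 by the same exact test). These were 2 lower and 1 higher of 8, where 8.66% of all 358 detected genes were lower in replicate 2 and 9.22% higher. The median log2 ratio of the 8 members was -0.46, beside -0.06 over all 358.

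The remaining 5 detected members had ratios below the fold minimum. Gm23450 was at -0.58 (-1.11 to -0.06) with an adjusted p of 0.0424, and Gm23935 at -0.59 (-1.24 to 0.02) with 0.0723, by the exact binomial test. By the same test Gm23450 had an adjusted p of 0.0528 in the unstranded column and 0.0639 with DESeq2 size factors. With a minimum of 1 count in each library it had 0.0661. The value was 0.000147 with library totals alone and unchanged with a prior count of 5. Gm49347 was at -0.34 (-0.69 to 0.01), Gm49346 at 0.27 (-0.62 to 1.18) and Gm27920 at 0.39 (-0.90 to 1.75). For these last 3, whose intervals span 0, no difference was detectable at this depth. These tests measure departure from counting error between 2 libraries, not from the spread between animals. The spread used by edgeR was estimated from the same 2 libraries taken as replicates. Its test therefore cannot separate a difference between them from that spread. With the spread over genes estimated by edgeR (biological coefficient of variation 0.444), the edgeR exact test gave an adjusted p of 1 for all 8 members. Scaled by library totals alone, which puts the median of all detected genes at -0.49, 4 members were lower and 0 higher. Here Gm23450 at -1.01 and Gm23935 at -1.02 passed. Gm47277, at 1.03 with an adjusted p of 0.0621 by the exact binomial test, did not. The share of all genes called under this scaling is not given here, so the 4 cannot be read against it. Gm27881 lost its call with a prior count of 5, at -0.93, and with a minimum of 1 count in each library, where its adjusted p was 0.0573 by the exact binomial test.

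Sorted by genomic place, the members with counts lay mainly in exons of protein-coding genes and over other short RNAs. Of the 39 members with a count in each library, 18 lay on the same strand as an exon of a protein-coding gene and 8 over another annotated short RNA, though these places held only 68 and 21 of all 1020 members. As shares of each place, 26.5% of the exonic members and 38.1% of those over short RNAs had a count in each library, compared with 1.69% in introns, 1.67% in exons of other genes, 2.34% on the opposite strand of a gene only and 0.713% between genes. Among the other miRNA genes the share was also highest over other short RNAs, at 75.0%. It was 73.8% in exons of other genes, 50.9% in exons of protein-coding genes, 44.7% in introns, 42.9% between genes and 31.2% on the opposite strand of a gene only. Intergenic and intronic loci were the most frequent among members, 421 (41.3%) and 236 (23.1%), but gave 7 of the 39 together. The 3 intergenic members with a count in each library were Gm44456, at 5 and 10 counts, Gm25732, at 3 and 2, and Gm27379, at 3 and 1. They were named after their values were seen.

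**Figure D2:**
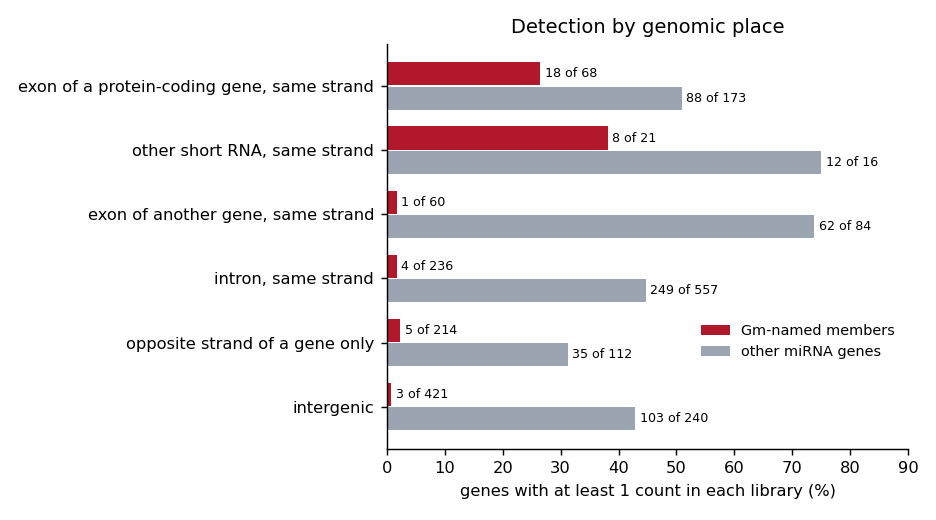
Percent of genes with at least 1 count in each library by genomic place, for members (red) and other miRNA genes (grey), with the numbers of genes beside each bar. The red bars reach 26.5% in exons of protein-coding genes and 38.1% over other short RNAs, and stay at or below 2.34% elsewhere, while the grey bars range from 31.2 to 75.0%.

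Exons of protein-coding genes accounted for 2766 member counts in replicate 1 and 882 in replicate 2. Of the 18 exonic members with a count in each library, 15 overlapped the first exon of a transcript and 13 a 5′ UTR, against 39 and 32 of all 68 exonic members. Coding sequence was overlapped by 7 and a 3′ UTR by 3 of the 18. Beside Gm26117, Gm23450 and Gm27920, the exonic members with most counts were Gm47302, Gm22133 and Gm23634. Gm47302, overlapping exon 1 of a transcript of the type III collagen gene Col3a1, had 40 and 7 counts. Gm22133, in the ferritin light chain gene Ftl1, had 17 and 5. Gm23634, overlapping the 5′ UTR of the microtubule regulator gene Stmn1, had 15 and 9. These 3 fell short of 10 counts in replicate 2 and were not among the 8 tested members. With a minimum of 1 count in each library, Gm47302 and Gm22133 were lower in replicate 2, at log2 ratios of -2.41 and -1.65 (adjusted p 3.85e-06 and 0.0414, exact binomial test), and Gm23634, at -0.68, was not called. Gm24572 overlapped the 5′ UTR of Dgcr8 and had 6 and 1 counts. Dgcr8 itself encodes the RNA-binding partner in the Microprocessor. Gm47302, Gm23634 and Gm24572 were named after their values were seen. Messenger RNA was not measured in these libraries, so the exonic counts cannot be set against the levels of the hosts.

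Over other short RNAs, the members on snoRNAs held most counts. The 9 members over snoRNAs had 195 counts in replicate 1 and 178 in replicate 2, nearly all from Gm49347, Gm49346 and Gm47277, and 4 of the 9 had a count in each library. The last of these 4, Gm47284, over the snoRNA Gm24888 in the ribosomal protein gene Rpl27a, had 7 and 2. The 8 members over RNAs of the class misc_RNA had 6 and 15 counts, of which Gm47295, over the 7SL RNA gene Rn7s1, had 5 and 13. It shared a run of 77 of its 79 bases with Rn7s2. The 4 members over ribosomal RNA genes had 3 counts in each library. Among them Gm47281, on the Y chromosome over a 5S ribosomal RNA gene, had 1 count in each library of these female glands, and its whole sequence also stood in the ribosomal RNA gene Gm26381. Runs of at least 18 bases of it recurred in 128 genes elsewhere. Gm47284, Gm47295 and Gm47281 were named after their values were seen.

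Counts on the opposite strand came almost wholly from members that face a named miRNA gene. The opposite-strand column held 65247 counts over the members in replicate 1 and 73576 in replicate 2, and 65216 and 73561 of these lay at 7 members. Each of the 7 had at least 10 opposite-strand counts in each library, as 1.32% of all genes did, and no other member did. The remaining 31 and 15 counts were spread over 20 members, none with more than 7 in a library. On their own strand the 7 members had 1 count in replicate 1 and 0 in replicate 2. The share of own-strand reads among both strands was thus 0.00153% in replicate 1 (exact Clopper-Pearson 95% interval 3.88e-05 to 0.00854%), and 0 of 73561 in replicate 2 allows a share of up to 0.00408% by the limit of 3 counts, or 0.00501% by the exact upper bound.

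Gm25927, opposite Mirlet7e of the let-7 family, had 0 own-strand counts in both libraries, and 29318 and 33609 on the opposite strand. Gm24083, opposite Mir191, had 0 and 0, and 26372 and 27801. Gm24111, opposite Mirlet7f-1, was the only one with an own-strand count, 1 in replicate 1 and 0 in replicate 2, beside 736 and 759 on the opposite strand. In all 7 the opposite-strand count equalled the own-strand count of the partner in both libraries, so the same reads were tallied at both entries. In the unstranded column both the member and its partner stood at 0.

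Of the 7, 4 lay within 31459 bases of chromosome 12, in the imprinted Dlk1-Dio3 region, a cluster of miRNAs transcribed from the maternal chromosome. Gm25252, opposite Mir376a, had opposite-strand counts of 4667 and 4932, and Gm24321, opposite Mir409, had 3065 and 5496. Gm25750, opposite Mir380, had 888 and 425, and Gm44322, opposite Mir539, had 170 and 539. In raw counts, replicate 1 was the higher for Gm25750 and replicate 2 for the other 3. Scaled to library totals, replicate 1 was the higher for Gm25252 as well, since the same reads gave Mir376a 1229 CPM in replicate 1 and 980 in replicate 2. All 4 had 0 own-strand counts in both libraries. An eighth member, Gm25641, faces Mir9-1 and is itself listed by RefSeq as the hairpin of miR-9b. It had 0 own-strand counts in both libraries, and 0 and 1 on the opposite strand.

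**Figure D3:**
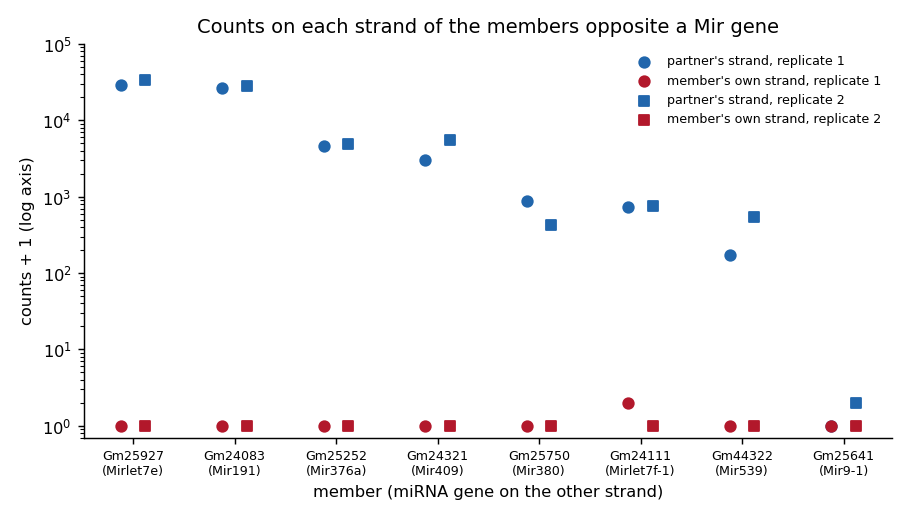
Counts plus 1 (log axis) on the strand of the named partner (blue) and on the member's own strand (red) for the 8 members opposite a Mir gene, with circles for replicate 1 and squares for replicate 2. The blue points of 7 members lie between 170 and 33609 counts, the red points lie at 0 counts apart from 1 count for Gm24111, and Gm25641 has at most 1 count on either strand.

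RefSeq listed a hairpin of its own on the same strand for 11 members. Of these, 3 had a count in each library, where 26.7% of all genes did, and the others had none. The 3 were Gm23450 (miR-935), Gm38670 (miR-9769) at 5 and 3 counts, and Gm24572 (miR-3618) at 6 and 1. Together they held 90 counts in replicate 1 and 56 in replicate 2. The 8 at 0 in both libraries were Gm23363 (miR-3154), Gm25641 (miR-9b), Gm38671 (miR-9768), Gm24195 (miR-1271), Gm22650 (miR-3552), Gm24627 (miR-1911), and Gm27775 and Gm27740, a pair that carry the same miR-6967. Gm22650 and Gm24627 both lie in introns of the serotonin receptor gene Htr2c on the X chromosome. No member overlapped a Mir-named gene on the same strand.

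Copies of sequence were common among the members. A run of at least 18 bases recurred in another miRNA gene of the tables for 851 of the 1020 members (83.4%), and for 284 of the 1182 other genes (24.0%). For 583 of the 851 the run was shared with a gene that is no member. Of the members that shared such a run 15 (1.76%) had a count in each library, and of the 169 that shared none 24 (14.2%) did. The 169 members that shared no such run with another miRNA gene held 2947 of the 3091 member counts in replicate 1 and 1039 of 1175 in replicate 2. Among the other miRNA genes 109 of 284 with a shared run (38.4%) and 440 of 898 without (49.0%) had a count in each library. The part that reads mapping to several places play in these values was not tested, since they are not assigned to genes in the tables.

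**Figure D4:**
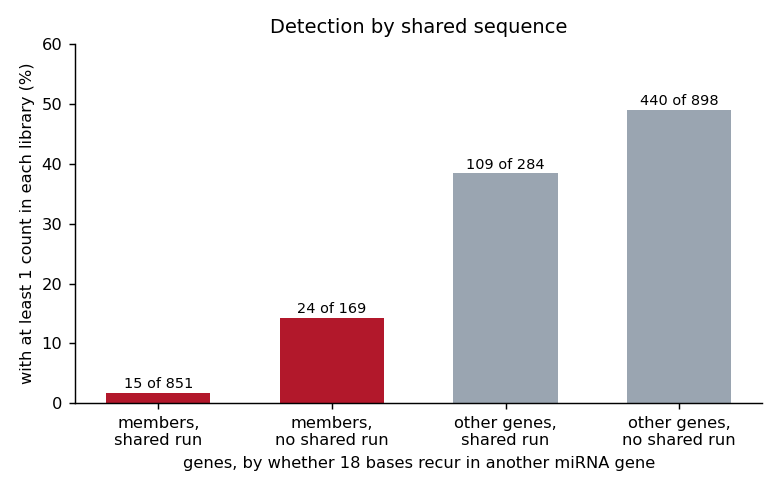
Percent of genes with at least 1 count in each library for members (red) and other miRNA genes (grey), split by whether 18 bases recur in another miRNA gene of the tables, with the numbers of genes above the bars. The bars stand at 1.76% and 14.2% for members with and without a shared run, and at 38.4% and 49.0% for the other genes.

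The large families formed by such runs were nearly without counts, while all members that shared a run held 144 counts in replicate 1 and 136 in replicate 2. Linking members through shared runs gave 8 families of at least 20 members, which held 579 members (56.8%) and had 2 counts in replicate 1 and 4 in replicate 2 over all of them. The largest, of 194 members on 21 chromosomes, shared runs chiefly with Mir466q and Mir1187 and had 0 and 2 counts. Another held 99 members, all sharing a run with a Mir680 gene, and 83 of them contained the whole of miR-680, printed above. Next came 93 members related to Mir3470b and Mir1195, 44 of them with the whole of miR-3470b, and 56 members of which 50 held the whole of miR-3471. The families of 99, 93 and 56 members had 0 counts in both libraries. The named genes Mir680-1, Mir680-2, Mir680-3, Mir3470b and Mir3471-1 also had 0 counts. A read of miR-680, miR-3470b or miR-3471 fits many members as well as a named gene, and such reads are counted for no gene. The 0 counts therefore do not show how much of these sequences was present. In a family of 32 members, 27 shared a run with a Mir-named gene, most often Mir690. In this family 15 contained the whole of miR-690 and 15 the whole of miR-3473b, and its counts were 1 and 2. The remaining 3 families, of 49, 32 and 24 members, shared no run with any Mir-named gene of the tables.

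Few members that hold a full mature sequence had counts. The whole of a RefSeq mature sequence stood in 238 members (23.3%), and 227 of these had no RefSeq hairpin at their own place. Of the 227, 2 had a count in each library and the others none, with sums of 18 and 6 counts. Each of the 227 repeats a mature sequence of another place, so a read of that sequence alone fits several places and is set aside. Their 0 counts, and those of the named genes below, set no limit on the level of the mature sequence. Gm22133, at 17 and 5 counts, contains miR-692 and shares a run of 59 bases with Mir692-2, while the Mir692 genes had 0 counts. Gm22133 lies in exonic sequence of Ftl1 and shared the same length of run with the Ftl1 copy Ftl1-ps1. Gm24049, opposite Vav2, at 1 and 1, contains miR-690 and shares 46 bases with Mir690, which had 0 counts. Just short of a full mature sequence, Gm23134, in an intron of Blcap and opposite the imprinted gene Nnat, contained 22 of the 23 bases of miR-708-5p. It had 4 counts in replicate 1 and 1 in replicate 2, while Mir708 had 2103 and 1987. Among members with a count in each library, the next longest runs with a Mir gene were the 20 bases that Gm27486, Gm27322 and Gm47314 shared with Mir8112. Gm27486 had 9 and 8 counts, Gm27322 2 and 6, and Gm47314 1 and 1. All 3 overlapped the first exon of a transcript of a protein-coding gene.

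Of the 39 members with a count in each library, 33 shared fewer than 18 consecutive bases with any RefSeq mature sequence. Among the detected ones Gm23450 was the exception, with the full 24 bases of miR-935. The longest runs of the other 7 were between 9 bases, in Gm23935, and 16 bases, in Gm27881. The gene of miR-378d, the mature sequence listed for the run of Gm27881, had 112 counts in replicate 1 and 103 in replicate 2. Ties with other mature sequences that share a run of the same length are not shown here. Compared with transcripts of genes elsewhere that are not miRNA genes, 23 of the 39 shared a run of at least 18 bases. Members without counts were not searched in this way, so the share cannot be read as particular to members with counts. Gm49346 shared 74 bases with the snoRNA Gm22519, and Gm47277 shared 38 with an Rpl27a transcript.

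By base composition and predicted folding, the members with counts were rich in G and C. The median share of G and C was 62.5% in the 39 members with a count in each library and 50.5% in the other 981, and at least 60% G and C was found in 21 of 39 (53.8%) and in 199 of 981 (20.3%). The 8 detected members ranged from 34.9% in Gm49346 to 91.6% in Gm26117. The median minimum free energy per base, by RNAfold on the annotated gene sequence, was -0.369 kcal/mol in the 39 and -0.318 in the 981, beside -0.407 over the 1182 other genes and -0.433 over the 545 Mir genes with a count in each library. A more negative value means a more stable predicted fold, and it also falls with G and C content. The most stable folds per base of the detected members were those of Gm26117 and Gm23450, and the least stable was that of Gm47277, at -0.298. The members were longer than the other genes, with a median length of 104 bases against 81.

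**Figure D5:**
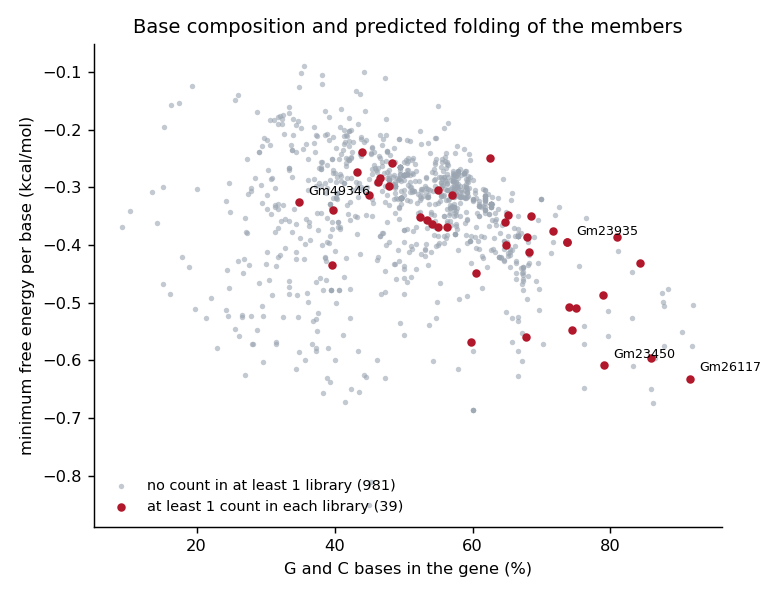
Minimum free energy per base (vertical, kcal/mol) against the percent of G and C bases (horizontal) for the 1020 members, with the 39 that had at least 1 count in each library in red and the other 981 in grey. The red points lie mostly to the right, with a median of 62.5% G and C, and Gm26117, at 91.6% and -0.632 kcal/mol, lies at the lower right.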

How the data were processed

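Raw counts per miRNA gene, not normalized, were deposited by the authors for each library. Build mm10 and annotation GENCODE M21 are given in text files deposited beside the tables. The aligner, the counter and the trimming were not given in the sources used here. Of the undefined strand columns, the one with the larger sum in both libraries was read as the gene's own strand. Totals were 3797107 and 5034257 counts, and lines for reads outside genes stayed out of them.

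The members and lists were chosen with earlier results of these data known. CPM, shares with Wilson 95% intervals and log2 ratios (TMM factors 1.16 and 0.862, prior count 0.5) were computed. Genes with at least 10 counts in each library had an exact two-sided binomial test, adjusted by Benjamini-Hochberg over all such genes. The test was checked on simulated counts drawn with counting error only and scaled by library totals. That setting holds no spread between libraries and no TMM scaling, so it does not show how the test behaves where libraries differ more. Places came from GENCODE M21 overlaps of at least 1 base, hairpins and mature sequences from RefSeq, and folds from RNAfold 2.7.2 over the full gene. Uniqueness in the whole genome was not analysed here.

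The members to be named were up to 25 of highest CPM among those with at least 10 counts in each library, those called with a mean of at least 100 counts, those overlapping a Mir gene with at least 10 counts on either strand, up to 6 sharing the longest runs with a Mir gene and up to 5 most uneven toward the opposite strand. All other members named, including the copies of Gm23935, the members with a RefSeq hairpin and Gm22066, were named after their values were seen.

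Alternatives were the unstranded column, minimums of 1 and 100 counts, members with copies left out, thinning of the deeper library, Mir122 left out of the totals, library totals alone, DESeq2 size factors, a prior count of 5, edgeR's exact test, runs of 22 bases and each replicate left out. Leaving out Gm26117 was added after the data were seen. Versions were edgeR 4.0.16 and DESeq2 1.42.0 in R 4.3.3, and scipy 1.17.1, numpy 2.4.6, pandas 2.3.3 and matplotlib 3.10.9 in Python 3.11.15.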

Additional observations from a re-analysis of the deposited data

How the results depend on the processing

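The 8 detected members became 39 with a minimum of 1 count and 2 (Gm26117 and Gm49347) with a minimum of 100. They stayed within 1.5 times of 8 in the unstranded column (8), without members that share an 18-base run (6), with the deeper library thinned (6), and in each library alone (11 in either). The mean share of counts, 0.0524%, ranged from 0.0233% to 0.0814% between the single libraries and was 0.0703% in the unstranded column, 0.0557% without Mir122 in the totals and 0.0115% without Gm26117. The 3 members that differed between libraries were 1 with a minimum of 100 counts (Gm26117, since fewer genes are tested) and 0 by edgeR's exact test, with its spread estimated over genes. Library totals gave 4, a minimum of 1 count 4 (adding Gm47302 and Gm22133 and losing Gm27881), a prior count of 5 gave 2, and DESeq2 size factors and the unstranded column 3 each. The share of all tested genes called is given here for the main setting only. Of 42 recomputed ratios of single members, 3 lost and 2 gained a call, and none called was reversed. Leaving out a replicate leaves no second library, so the ratios have no such value. Runs of 22 bases were shared by 800 members in place of 851, and 7 members had at least 100 opposite-strand counts in each library, as with 10. No paired analysis was possible because there is only 1 group. Values rest on few reads: apart from Gm26117 and Gm49347, no member reached 100 counts in either library.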
